A study of Mus musculus with 2 samples.

Results

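The 10 mitotic kinesins *Kif4*, *Kif11*, *Kif15*, *Kif18a*, *Kif20a*, *Kif20b*, *Kif22*, *Kif23*, *Kif2c* and *Kifc1* were followed along the cell cycle of single neural progenitor cells. They were chosen by name, as motor genes known for work in cell division, with earlier results of these data known. Each had 1 row among the 10666 genes of the expression table. The cells came from 2 cultures of neurospheres, which are floating balls of neural stem and progenitor cells. Both cultures were wild type, strain C57BL/6, and were started from the dorsal telencephalon at embryonic day 14.5. They were grown with 10 ng/ml EGF and 10 ng/ml bFGF and profiled by droplet single-cell RNA-seq of 3′ ends, with 5748 cells from culture 1 and 7057 from culture 2. There was 1 condition and no treated or mutant group, so the comparisons are between stages of the cycle within a culture, and the error is the difference between the 2 cultures. Passaged neurospheres are a culture model that has been kept in growth factors, and nothing in the labels says whether the cultures came from separate embryos.

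Kinesins are motor proteins that use ATP to move along microtubules or to take them apart. Most carry cargo in cells at any time, while a smaller set builds the spindle, moves the chromosomes and divides the cell, and is made mainly by cells that are about to divide. *Kif11* (Eg5) slides antiparallel microtubules and pushes the spindle poles apart, *Kif15* can share that work, and *Kifc1* (HSET) moves to the minus end and focuses the poles. *Kif22* (Kid) and *Kif4* are chromokinesins that bind chromosome arms, *Kif18a* dampens chromosome movement at the plus ends of kinetochore microtubules, and *Kif2c* (MCAK) takes microtubules apart at centromeres. *Kif23* (Mklp1), *Kif20a* (Mklp2) and *Kif20b* (Mphosph1) act at the central spindle and in cytokinesis, where *Kif4* also binds *Prc1*.

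The cycle was measured by the deposited position of each cell, an angle between 0 and 2π that the authors computed from the principal components of cell-cycle genes. In these cells the lines of 8 S phase genes had their maxima between 0.56π (Ung) and 0.895π (Rrm2). The cyclin gene *Ccnb1* had its maximum at 1.17π in culture 1 and later, at 1.28π, in culture 2. *Cdc20*, an activator of the anaphase-promoting complex, had its maximum at 1.185π and 1.31π. The cells were spread unevenly, with 1064 and 1120 cells between 1π and 1.25π but only 85 and 279 between 1.25π and 1.5π and 64 and 189 between 1.5π and 1.75π.

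Of the markers sought, 6 of 8 for radial glia were in the table, detected in from 21.1% (Pax6) to 100% (Fabp7) of cells in culture 1 and from 23.1% to 99.96% in culture 2. Of the dorsal telencephalon markers 3 of 7 had a row, and were detected in 21.1% to 45.0% of cells over both cultures. Of the oligodendrocyte lineage 4 of 5 had a row. *Olig2* was detected in 97.3% and 91.9% of cells, but *Cspg4* in 11.8% and 13.7%, *Pdgfra* in 8.77% and 1.81% and *Sox10* in 4.26% and 0.751%. For neurons 2 of 6 markers had a row, *Map2* detected in 77.7% and 63.6% of cells and *Dcx* in 7.34% and 1.56%. For astrocytes 2 of 4 had a row, *Aldh1l1* detected in 43.2% and 28.8% and *S100b* in 18.6% and 6.65%. No marker of microglia, endothelium, fibroblasts or red blood cells had a row. *Sox2*, *Hes5*, *Tubb3* and *Gfap* had no row either. A missing row was therefore not taken to show that a gene or cell type was absent. Culture 1 was sequenced more deeply, with a median of 19477 UMIs (counted RNA molecules) a cell against 14637 in culture 2, and the cultures shared 48 barcode sequences. The deposited values are normalized for the depth of each cell, but 1 UMI was worth a different amount in each gene and culture. Levels, given throughout as mean log2(value + 1), were therefore compared within a gene and culture, and the share of cells with a value above 0, called detected, was used beside them.

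All 10 kinesins were low between 1.75π and 2π and higher between 0.75π and 1.25π in both cultures, and the line of *Kif15* in culture 2 was already at its maximum at 0.96π. Called here was a gene whose values followed 2 harmonics of the position with an R², the share of its variance over cells, of at least 0.05 in each culture. The 10 kinesins all passed, where 4.01% of all genes tested did (428 of 10666). The lower R² of the cultures ranged from 0.165 for *Kif18a* to 0.405 for *Kif22*, with a median of 0.274 against 0.00183 over all genes. Cell-cycle genes made the position, and some of the kinesins may have been among them. A second position was therefore rebuilt from 85 S and G2M genes with the 5 kinesins of that list left out, and had a circular correlation with the deposited one of 0.934 in culture 1 and 0.909 in culture 2. With it the 10 kinesins passed again, beside 3.92% of all genes, with lower R² values from 0.144 to 0.377. Total UMIs varied with the position too, with medians of 20527 and 17813 between 1π and 1.25π and 18437 and 13991 between 1.75π and 2π. With a quadratic term for log2 total UMIs added to the fit, the 10 passed as well, beside 3.86% of all genes, and the partial R² ran from 0.15 to 0.40.

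**Figure D1:**
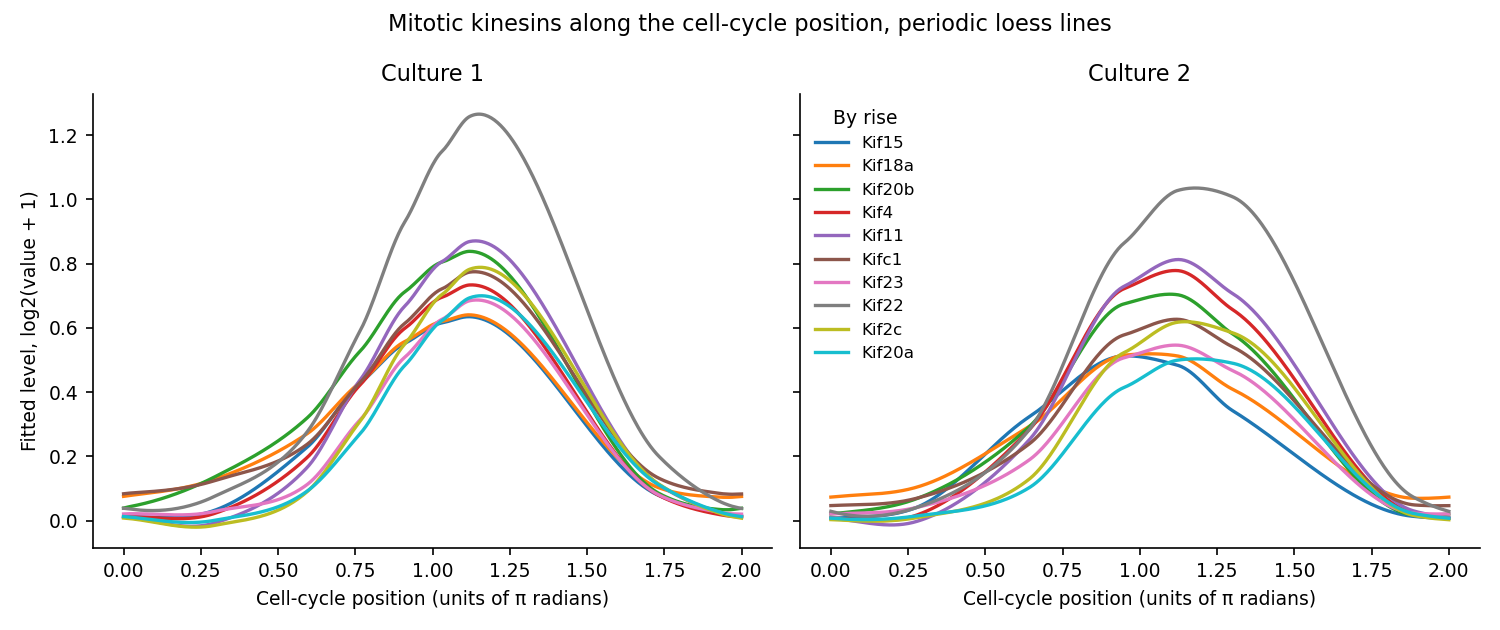
Periodic loess lines of the level, log2(value + 1), of the 10 kinesins (colours) against the cell-cycle position in units of π radians, for culture 1 (left) and culture 2 (right). Lines lie near 0 before 0.25π, climb between 0.5π and 1π and reach their maxima between 1.115π and 1.16π in the first culture and between 0.96π and 1.18π in the second.

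The height of a gene's line, from its lowest to its highest point, had a median of 0.72 over the 10 genes in culture 1 and 0.60 in culture 2. Heights and maxima are those of smoothed lines, which ran below the cells' own means between 1π and 1.25π. There the line minus the mean of the cells had a median of -0.118 in culture 1 and -0.125 in culture 2. The height of the line was smallest for *Kif18a* (0.57 and 0.45) and largest for *Kif22* (1.23 and 1.02). This ranking is across genes in which 1 UMI was not worth the same in each. On the linear scale the mean value between 1π and 1.25π was 12.04 to 59.4 times that between 1.75π and 2π in culture 1, with a median of 42.8. In culture 2 it was 8.43 to 85.1 times as high, with a median of 46.0. *Kif18a* had the lowest ratio in each culture, and *Kif2c* (53.8 and 85.1) and *Kif4* (59.4 and 60.1) were among the highest.

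Since these genes moved together, their promoters were read from RefSeq on GRCm38.p6, in windows from 250 bases before to 50 after the start. A window was given for 9 of the 10 genes, *Kif20a* being the exception. The start is that of RefSeq, which lay within 51 bases of the start of the gene in GENCODE for 7 genes, 328 bases inside the gene for *Kif4* and 3867 bases inside it for *Kif2c*, whose window is therefore not at the outermost start. Searched on both strands were CCAAT, the box bound by NF-Y, and TTTGAA and TTCGAA, forms of the cell cycle homology region (CHR) known from promoters of G2 and M phase genes. TTTGAA was in 8 of the 9 windows (88.9%), against 17.9% of all 32851 windows and 31.6% of the windows of genes called above. Without *Kif2c* it was in 7 of 8 (87.5%). CCAAT was in 5 of 9 (55.6%), against 37.4% of all windows and 57.8% of those of called genes. Both together were in 5 of 9 (55.6%), against 7.52% of all and 23.3% of called. TTCGAA was in none of the 9 windows and in 1.56% of all. The search found letters only and shows no binding.

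The windows of 5 genes are printed to show how the motifs lie, as 220 bases before the start to 30 after it, 5′ to 3′ on the strand of the gene, with CCAAT and TTTGAA on either strand in capitals. In *Kif11* and *Kif22* a CCAAT box (read on the other strand as ATTGG) lies shortly before a TTTGAA (read as TTCAAA), in *Kif23* both sit around the start, *Kif20b* has TTTGAA repeated end to end, and *Kif18a*, the gene with the lowest R², has neither.
Kif11, chr19:37376162-37376411, strand +: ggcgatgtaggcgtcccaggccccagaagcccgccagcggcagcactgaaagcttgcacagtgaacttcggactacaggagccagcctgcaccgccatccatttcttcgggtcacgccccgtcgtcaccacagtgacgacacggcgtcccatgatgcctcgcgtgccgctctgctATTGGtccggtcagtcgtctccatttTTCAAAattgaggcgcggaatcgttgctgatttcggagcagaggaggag
Kif22, chr7:127042391-127042640, strand -: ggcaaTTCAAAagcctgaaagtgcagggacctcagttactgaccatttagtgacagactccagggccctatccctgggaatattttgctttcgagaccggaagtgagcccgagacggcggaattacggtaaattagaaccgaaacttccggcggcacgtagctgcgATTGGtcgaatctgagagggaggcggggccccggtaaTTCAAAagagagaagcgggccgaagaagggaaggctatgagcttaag
Kif23, chr9:61946770-61947019, strand -: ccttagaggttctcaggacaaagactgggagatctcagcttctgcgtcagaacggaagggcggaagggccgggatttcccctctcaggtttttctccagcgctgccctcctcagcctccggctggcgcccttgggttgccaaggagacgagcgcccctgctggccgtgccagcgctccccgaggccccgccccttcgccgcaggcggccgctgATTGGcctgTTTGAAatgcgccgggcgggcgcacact
Kif20b, chr19:34922138-34922387, strand +: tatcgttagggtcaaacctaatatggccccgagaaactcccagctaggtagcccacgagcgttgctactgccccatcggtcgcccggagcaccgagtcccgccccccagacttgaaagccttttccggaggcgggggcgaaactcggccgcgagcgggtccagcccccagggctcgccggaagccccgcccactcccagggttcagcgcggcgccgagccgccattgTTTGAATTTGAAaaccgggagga
Kif18a, chr2:109280518-109280767, strand +: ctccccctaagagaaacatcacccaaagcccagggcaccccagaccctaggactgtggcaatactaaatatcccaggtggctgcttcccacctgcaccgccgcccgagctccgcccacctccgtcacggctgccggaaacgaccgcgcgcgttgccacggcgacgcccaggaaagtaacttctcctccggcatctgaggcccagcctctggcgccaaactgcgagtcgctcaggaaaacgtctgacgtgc
Counted from the start of the gene as 1, the first base of the CCAAT letters nearest to the start was at -45 in *Kif11*, -54 in *Kif22* and -7 in *Kif23*, and that of the TTTGAA letters at -19, -17 and 3. In *Kif20b* the repeated TTTGAA began at 8 and 14. *Kif4* and *Kifc1* also held both motifs, and *Kif15* and *Kif2c* held TTTGAA without CCAAT.

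Among the motors of spindle assembly, *Kif11* had a mean level of 0.93 in culture 1 and 0.93 in culture 2 between 1π and 1.25π, and of 0.02 and 0.02 between 1.75π and 2π. It was detected in 71.4% and 61.0% of cells in the first of these arcs and in 2.12% and 1.43% in the second. Within each culture the level in the first arc was thus many times that in the second. *Kif15* went from 0.02 and 0.01 between 1.75π and 2π to 0.64 and 0.50 between 1π and 1.25π. In culture 2 its level was already past its highest point there, since the mean value between 0.75π and 1π was 124% of that between 1π and 1.25π (88.1% in culture 1). In 20 classes of equal width *Kif15* was highest between 1π and 1.1π in the first culture and between 0.9π and 1π in the second, in each culture an earlier class than that of the other 9 genes.

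*Kifc1* rose from 0.08 and 0.05 to 0.87 and 0.74 between the same arcs. *Kifc5b* is a near-identical copy of *Kifc1*, and counting can split reads that match both, so the level of *Kifc1* is uncertain. When values were scaled to UMIs, 189 cells of culture 1 and 231 of culture 2 held *Kifc1* at 0.5 of a UMI or 0.5 above a whole number. Of these, 76.2% and 75.3% held *Kifc5b* at such a value too, compared with 1.92% and 0.776% of the other cells. Values at such steps were also common in *Kif23* (36.5% and 40.7% of its low values) and *Kif15* (21.1% and 29.96%), and rare in *Kif20a* (0.566% and 0.261%). The cause in *Kif23* and *Kif15* was not tested.

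The motors that act on chromosomes were led in detection by *Kif22*, found in 85.8% of cells of culture 1 (95% exact interval 83.6 to 87.9) and 72.8% of culture 2 (70.1 to 75.4) between 1π and 1.25π. Its level there was 1.43 and 1.16, and 0.05 and 0.05 between 1.75π and 2π. *Kif4* had levels of 0.78 and 0.88 against 0.02 and 0.02, and *Kif2c* of 0.90 and 0.74 against 0.02 and 0.01. *Kif2c* was among the rarest outside mitosis, with a value above 0 in 2.07% and 0.857% of cells between 1.75π and 2π. These intervals cover counting error only.

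*Kif18a* and *Kifc1* stood above the other genes at the low end, though *Kifc1* in culture 2 was only narrowly above *Kif22* in detection. The uncertainty from *Kifc5b* given above holds for *Kifc1* here too. *Kif18a* was detected in 7.27% and 6.64% of cells between 1.75π and 2π, and *Kifc1* in 9.11% and 4.26%, where the other 8 genes had between 1.68% and 5.20% in culture 1 and between 0.857% and 3.91% in culture 2. Between 1π and 1.25π *Kif18a* was detected in 57.9% and 45.3% of cells. The mean value in the low arc was 8.30% and 11.9% of that in the high arc for *Kif18a* and 7.94% and 5.74% for *Kifc1*, against medians of 2.34% and 2.18% over the 10 genes. *Kif18a* overlaps *Mettl15* on the other strand, *Kif4* overlaps *Pdzd11* and *Kif20a* overlaps *Cdc23*, and each of these partners had its own row. The part of such overlaps in the values was not tested.

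The motors of cytokinesis had levels between 1π and 1.25π of 0.78 and 0.67 for *Kif23*, 0.80 and 0.60 for *Kif20a*, and 0.95 and 0.84 for *Kif20b*. Between 1.75π and 2π the same genes had 0.02 and 0.02, 0.02 and 0.01, and 0.03 and 0.02. They differed in how early they appeared. Between 0.5π and 0.75π, while S phase genes were high, *Kif20b* already had 34.3% and 28.2% of its mean value between 1π and 1.25π. *Kif20a* had 13.3% and 12.9% there, and *Kif23* 14.9% and 19.9%.

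The order of the rise was read as the position where a gene's line crossed the middle between its minimum and its maximum on the way up. *Kif15* came first, at 0.675π in culture 1 and earlier still, at 0.56π, in culture 2, followed by *Kif18a* at 0.69π and 0.645π, *Kif20b* at 0.695π and 0.705π, and *Kif4* at 0.725π and 0.72π. *Kif11* (0.76π and 0.74π) and *Kifc1* (0.765π and 0.735π) were in the middle of the order. *Kif23* (0.8π and 0.735π), *Kif22* (0.795π and 0.77π), *Kif2c* (0.815π and 0.78π) and *Kif20a* (0.82π and 0.79π) came last. A pair was taken to differ where both cultures had the same order and the mean difference was larger than the difference between the cultures, which held for 34 of 45 pairs. With 2 cultures this rule is loose and is no test. The share of pairs that would pass it without a true difference was not measured. *Kif15*, *Kif18a* and *Kif20b* could not be separated from each other in this way, nor could *Kif4* and *Kif15*. *Kif11* and *Kifc1* were not separated either, and *Kif23*, whose rise differed most between cultures after that of *Kif15*, was not separated from *Kif20b*, *Kif4*, *Kif11*, *Kifc1*, *Kif22* or *Kif2c*. *Kif20b* and *Kif4* differed, as did *Kif4* and *Kif11*. The neighbours *Kif22*, *Kif2c* and *Kif20a* passed the rule with steps of only 0.005π to 0.02π, on lines read every 0.005π. The size of these distances depended on the smoothing. With a loess span of 0.5 in place of 0.3 the rises spread over 0.025π in culture 1 and 0.045π in culture 2, against 0.145π and 0.23π, and 32 of the 34 pairs kept their order.

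**Figure D2:**
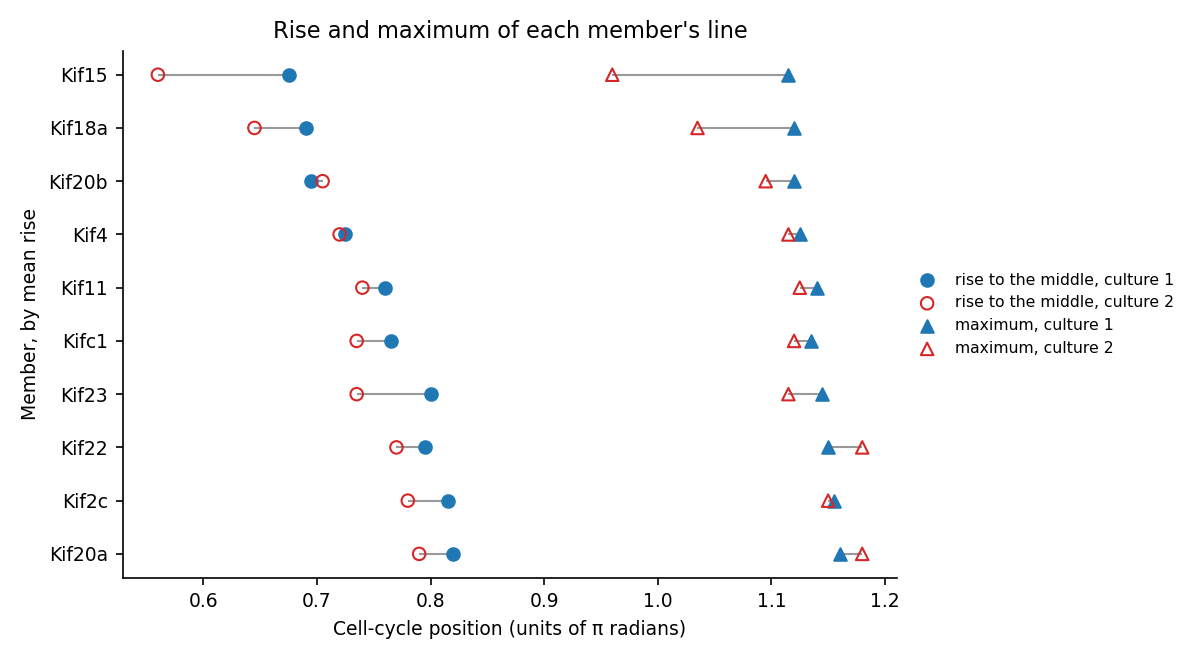
Cell-cycle position, in units of π radians, at which each kinesin's line crossed its middle on the way up (circles) and had its maximum (triangles), in culture 1 (filled blue) and culture 2 (open red), with genes sorted by mean rise. The rises spread from Kif15 to Kif20a over 0.145π in the first culture and 0.23π in the second (0.025π and 0.045π with a loess span of 0.5), and the maxima over 0.045π and 0.22π.

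The maxima lay closer together than the rises in culture 1. They ran in mean from 1.04π for *Kif15* (SD 0.11, n = 2 cultures) to 1.17π for *Kif20a* (SD 0.014), and 16 of 45 pairs differed beyond the spread between cultures. The same loose rule was used, so this count alone does not establish an order of the maxima. The early maximum of *Kif15* rested on culture 2, where it was at 0.96π, while in culture 1 it was at 1.115π, with *Kif18a* and *Kif20b* next at 1.12π. *Kif2c* (1.155π and 1.15π), *Kif22* (1.15π and 1.18π) and *Kif20a* (1.16π and 1.18π) had the last maxima, and neither *Kif2c* and *Kif22* nor *Kif22* and *Kif20a* differed beyond the spread. With the position rebuilt without kinesins, *Kif15* again had the first maximum, and *Kif20a* and *Kif2c* shared the last (1.225π and 1.175π each). The 34 pairs that differed in rise kept their order in the mean with that position.

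The kinesins were also unequal after the maximum, and here the cells' own means were used. Few cells lay past 1.25π, and there the lines ran above the cells by a median of 0.39 in culture 1 and 0.29 in culture 2. Between 1π and 1.25π the lines ran below the cells, as given above with the heights. Between 1.25π and 1.5π *Kif22* was still detected in 37.6% of 85 cells in culture 1 (95% exact interval 27.4 to 48.8) and in 44.4% of 279 cells in culture 2 (38.5 to 50.5). Its mean value was 41.6% and 58.2% of that between 1π and 1.25π. *Kif20b* was detected in 4.71% (1.297 to 11.6) and 10.4% (7.07 to 14.6), and *Kif23* in 5.88% (1.94 to 13.2) and 11.1% (7.68 to 15.4). *Kif22* was thus above both in each culture. The intervals cover counting error over the cells of a culture only, and these genes lay near the ends of the range of the kinesins. *Kif22* was also the most detected of the kinesins between 1π and 1.25π. *Kif20b* kept 5.49% and 18.4% of its value, and *Kif23* 4.90% and 17.3%. For *Kif15* the cultures differed, with 51.2% kept in culture 1 and 27.3% in culture 2. Total UMIs were lower in this arc, with medians of 14111 and 11882. With each cell thinned to 10000 UMIs, *Kif22* was detected in 29.2% of 69 cells and 35.3% of 220 cells, and *Kif20b* in 3.39% and 6.50%.

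In cells thinned in this way *Kif22* was also the most detected of the 10 genes between 1π and 1.25π, in 65.9% of 1032 cells and 56.0% of 1021 cells, after 32 and 99 shallower cells were left out. The shares of the 10 genes then lay between 34.9% and 65.9% in culture 1 and between 22.5% and 56.0% in culture 2, where without thinning they had been between 57.9% and 85.8% and between 37.9% and 72.8%. The median gap between the cultures fell from 13.6 to 8.90 percentage points, and for *Kif4* it went from 66.3% against 61.4% to 41.5% against 42.6%. *Kif15* kept the widest gap after thinning, at 35.6% against 22.5%.

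**Figure D3:**
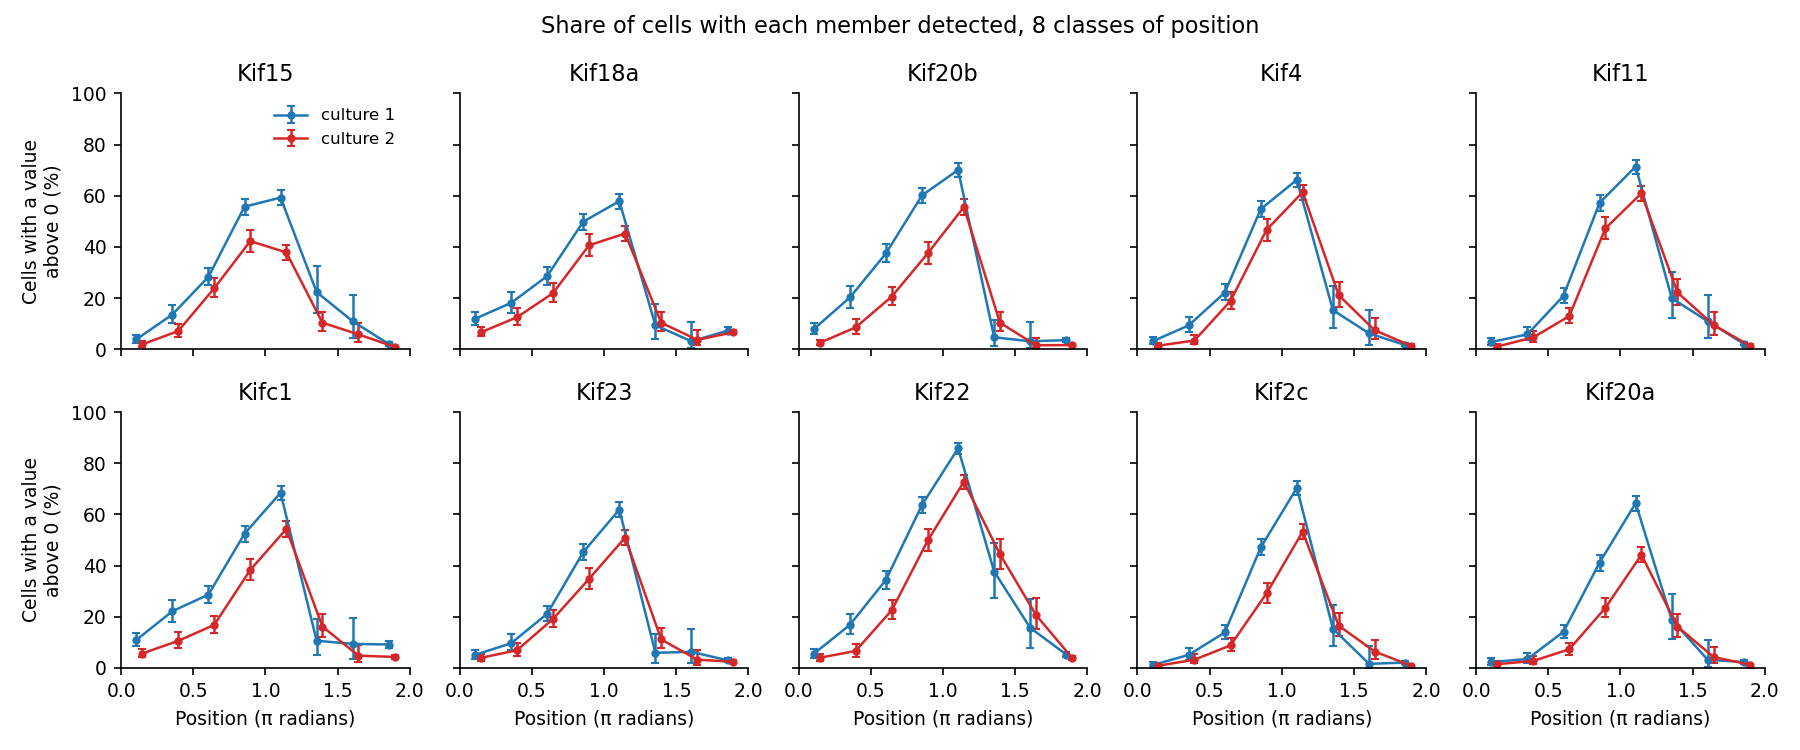
Share of cells, in percent, with a value above 0 for each kinesin in 8 classes of position 0.25π wide, in culture 1 (blue) and culture 2 (red), with exact 95% intervals from the binomial distribution (counting error alone). Each gene except Kif15 in culture 2 is highest between 1π and 1.25π and each falls steeply in the next class, while Kif22 stays highest there in both cultures.

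The kinesins were also counted in each cell. Between 1π and 1.25π a cell held a median of 7 of the 10 genes in culture 1 and 6 in culture 2, and 0.846% and 1.79% of cells held none. Between 0.5π and 0.75π the median was 2 in each culture. Between 1.75π and 2π it was 0, with 68.5% and 78.3% of cells holding none, and 1 of 1789 cells in culture 1 and 0 of 3149 in culture 2 held at least 5 (0 of 3149 allows a share of up to 0.0953%). All 10 were found together in 108 and 11 cells between 1π and 1.25π; culture 1 was the deeper.

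The authors had also given each cell a stage by 3 methods, and these did not all give the same order of stages. By cyclone and by Seurat, the 10 genes were all detected in a larger share of cells labelled G2M than of cells labelled S or G1, in each culture. By the third, SchwabeCC, all 10 were detected more often in S than in G2.M in culture 1 (medians of 41.7% and 29.7%), and 4 of 10 were in culture 2 (22.7% and 21.4%). In SchwabeCC stages *Kif22* was detected in 56.6% of S cells and 39.3% of G2.M cells in culture 1, and in 27.8% and 36.1% in culture 2. Among the 5 SchwabeCC stages each gene was lowest in M.G1 or G1.S, and 2451 and 3151 cells had no SchwabeCC stage. *Kif11*, *Kif20b*, *Kif23* and *Kif2c* are among the marker genes of cyclone and of the Seurat lists, so those labels were in part made from their own values. The other 6 are in neither. The gene lists behind the SchwabeCC stages were not checked for the kinesins. By cyclone, *Kif22* was detected in 87.2% and 72.8% of cells labelled G2M and in 20.97% and 11.6% of those labelled G1. *Kif4* was detected in 69.9% and 60.6% against 14.3% and 7.86%, *Kif20a* in 64.8% and 43.2% against 10.9% and 4.57%, and *Kif18a* in 62.5% and 47.5% against 18.3% and 10.7%. Cells labelled G1 numbered 4483 of 5748 and 5840 of 7057.

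Kinesins outside the 10 were read from the same fit, in which 4.01% of all genes were called, so that a count of 0 in a short list is no result about that list. Of 5 other mitotic kinesins measured, 3 were called, namely *Cenpe*, the kinetochore motor (lower R² 0.609, above each of the 10), *Kif14* (0.105) and *Kifc5b* (0.0713). *Kif18b* (0.0352) and *Kif24* (0.0109) were not. Both were rare, with *Kif18b* detected in 3.65% and 2.18% of cells and *Kif24* in 3.13% and 1.87%, so a low R² here does not show a flat gene. The line of *Kif18b* had its maximum at 1.125π and 1.11π. Of 18 kinesins listed under transport none was called, and the median was 0.0017. The highest was *Kif2a*, with 0.0304 and a maximum at 0.77π and 0.76π. It is a relative of *Kif2c* that also takes microtubules apart, so its place in that list is loose. Some of the list were rare, such as *Kif5a* (1.08% and 1.02% of cells) and *Kif17* (0.939% and 0.879%), where a low R² does not show a flat gene. The 4 light chain and adaptor genes had between 0.000924 (Kifap3) and 0.00607 (Klc4), and none was called. The lowest of the 10 mitotic kinesins thus lay above the highest of the 22 genes of the transport and light chain lists, which was *Kif2a*.

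**Figure D4:**
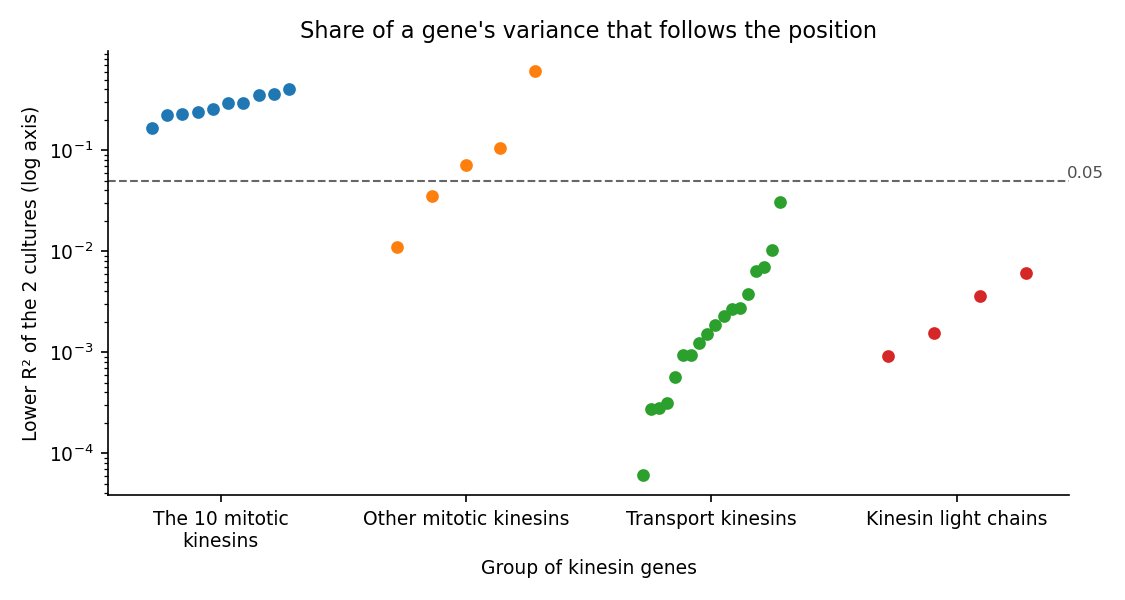
R² of the fit of each gene on the cell-cycle position, as the lower value of the 2 cultures on a log axis, for the 10 mitotic kinesins, 5 other mitotic kinesins, 18 transport kinesins and 4 kinesin light chain and adaptor genes; the dashed line marks 0.05. The 10 lie between 0.165 and 0.405, and the transport list ends at 0.0304 with Kif2a, which takes microtubules apart.

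The genes of proteins that work with these motors were read in the same way, and most but not all followed the position. All 11 central spindle and cytokinesis genes in the table were called, from *Cep55* (0.133) to *Cdca8* (0.75). The 7 genes of the mitotic trigger in the table were all called too, from *Foxm1* (0.104) to *Cdc20* (0.673). *Plk1* and *Ccna2* of these lists had no row. Of 14 spindle assembly genes 8 were called, with *Tpx2* highest (0.700), while *Nek9* (0.000446), *Nek6* (0.000824) and *Kansl3* (0.000943) were lowest and not called. The 8 S phase genes were all called. These counts stand beside 4.01% of all genes, and the genes were picked for their known roles in division. Cell-cycle genes made the position, and the paper ranks *Top2a*, of the trigger list, highest among them. Genes of these lists may thus have helped to make the position, so the counts are no independent support.

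Some motors were set beside a protein they are known to bind or depend on, in pairs chosen after the values were seen. The rise of *Kif4* minus that of *Prc1*, which it binds at the central spindle, was -0.015π in culture 1 against 0π in culture 2, which did not exceed the spread. *Kif23* and *Racgap1*, the subunits of centralspindlin, differed in rise by 0.015π and -0.02π, also within the spread. *Kif15* rose before *Tpx2*, which recruits it to the spindle, with differences of -0.115π and -0.195π that exceeded the spread. *Kif20a* rose after *Aurkb*, the kinase it helps to bring to the central spindle, by 0.155π and 0.18π. *Kif18a* rose before *Cenpe*, with differences of -0.11π and -0.13π, and both pairs differed beyond the spread in rise. None of the pairs above exceeded the spread in their maxima. For *Kif15*, *Kif20a* and *Kif18a* these differed by -0.04π and -0.22π, 0.065π and 0.225π, and -0.025π and -0.1π. Of the other pairs read, *Kif11* and *Tpx2*, *Kif2c* and *Aurkb*, and *Kifc1* and *Numa1* exceeded it in rise. *Kif22* and *Fam83d*, and *Kif20b* and *Prc1*, did not. The partners were not read with another loess span, on which the distances between the kinesins' rises depended.

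The genes whose mean profile over 20 classes of position was most like the mean profile of the 10 kinesins, outside the lists named above, were *Arhgap11a*, *Bub1b*, *Knl1*, *Ncapg* and *Spc25*. Their lower Pearson correlation of the cultures was 0.984, 0.983, 0.982, 0.979 and 0.976, with both profiles taken over the same cells and libraries. Of the 10 kinesins themselves *Kif4* (0.991) and *Kif11* (0.987) were nearest to that mean profile and *Kif15* (0.900) and *Kif20a* (0.915) farthest, a comparison in which each gene is part of the mean.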

How the data were processed

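The members and the gene lists were chosen with earlier results of these data known. By the methods, the authors quantified spliced counts with Alevin (Salmon 1.3.0) against GRCm38 and removed outlying cells, mitochondrial genes and rare genes; the labels name Seurat 3.2.2 as well. No doublet caller was run here. The deposited expression values are a linear signal normalized by the authors for the depth of each cell. Value times total UMIs gathered at multiples of a step that differed between genes and cultures, the scaling behind which is not given in the sources used here, so no count model was used. Steps gave estimated UMIs for thinning to 10000 UMIs, rounded to whole numbers, with shares as expectations. The deposited total UMIs per cell are estimated counts, and the deposited position and stages are other values.

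The unit of replication was the culture, so no p-value is given. Values were used as log2(value + 1). Cultures were fitted separately, each gene on 2 harmonics of the position, and a gene with R² of at least 0.05 in both was called. The named genes were the 10 kinesins, genes with the largest and smallest R² of each list, and the 5 genes with the most similar profiles. Ung, Ccnb1 and the partners set beside single kinesins were named after their values were seen. Lines are periodic loess of degree 2 and span 0.3, read at 401 positions, and both fits were checked on simulated data. Intervals are exact binomial at 95%. Promoter windows are from RefSeq. Python 3.11.15, numpy 2.4.6, scipy 1.17.1, R 4.3.3, Seurat 5.3.0 and scran 1.30.0 (for gene lists) were used. Alternatives were the threshold, pseudocount, harmonics, span, position, depth and each culture alone.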

Additional observations from a re-analysis of the deposited data

How the results depend on the processing

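The count of 10 called kinesins was the same in the 9 alternatives run, including thresholds of 0.02 and 0.1 and each culture alone. Over all genes the count of 428 moved to 890 at a threshold of 0.02 and to 240 at 0.1, and was 597 and 454 with culture 1 or culture 2 alone. The median partial R² of 0.257 was 0.257 to 0.325 when 1 culture was left out. The median maximum at 1.13π was 1.1125π with a loess span of 0.2, 1.04π with a span of 0.5, 1.1525π with the rebuilt position, 1.15875π in cells of middle depth, and 1.1175π to 1.1375π in single cultures. The median height of the lines, 0.66, was 0.51 with a span of 0.5 and 1.99 with a pseudocount of 0.1, and 0.60 to 0.72 in single cultures. The span between first and last maximum, 0.1325π, ran from 0.045π without culture 2 to 0.22π without culture 1. Leaving *Kif15* off the list, also chosen after the data were seen, gave 0.04π and 0.145π for the respective cultures. The span between first and last rise, 0.1875π, was chosen after the data were seen, as were its alternatives, and was 0.035π with a span of 0.5 and 0.145π to 0.23π in single cultures. With that span 32 of the 34 pairs that differed in rise kept their order, and with shares of detected cells in place of levels 33 did. The median detected share between 1π and 1.25π, 60.5% as a mean of cultures, was 39.3% after thinning to 10000 UMIs, which was also chosen after the data were seen. The cause of the smaller spans at span 0.5 was not tested. No paired analysis was possible because the result comes from no test between groups, there being 1 group.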
